A study of Mus musculus with 6 samples.

Results

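Transcripts of 10 circadian clock genes were followed in the atria of 6 old mice. They were named by symbol: the activators Clock and Npas2, the repressors Per1, Per2, Per3 and Cry1, the nuclear receptors Nr1d1 and Nr1d2, and the output transcription factors Dbp and Nfil3. All 10 are among the 54838 Ensembl genes of the count table, and 9 of them have counts. Per3 is listed at 0 in every library.

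The clock is a feedback loop of transcription that runs in nearly every cell, heart muscle cells included. CLOCK or NPAS2 pairs with BMAL1, the product of Arntl, binds E-box sequences and drives the Per, Cry, Nr1d and Dbp genes. PER and CRY proteins then block that pair, while the NR1D receptors repress Arntl, Npas2 and Nfil3 through RORE sequences. DBP activates and NFIL3 represses genes that carry D-box sequences. In the mouse heart, Dbp, the Nr1d genes and the Per genes therefore peak at about the opposite part of the day to Arntl and Npas2.

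The series compared old mice without the kinase PKC-epsilon, the product of Prkce, with old wild-type (WT) controls, with 3 mice labelled knockout (KO) and 3 labelled WT. The labels give C57BL/6J as the line of the WT mice and a Jackson Laboratory stock as the line of the KO mice, and an average age of 20.9 ± 0.43 months for both groups. Atria from both sexes were flash-frozen, and each mouse gave 1 library. No source used here gives the hour at which the atria were taken or the light cycle, so no library was assigned a phase in hours.

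For 4 libraries the labels contradict each other on the genotype. The name of the library heads its column of counts and was used for the main comparison, and WT and KO replicates are called by it below. The genotype field, title and mouse line say WT for KO replicates 2 and 3 and for WT replicate 1, and knockout for WT replicates 2 and 3 and for KO replicate 1. Levels are counts scaled to a fixed library total (CPM) after TMM scaling of library sizes. Prkce itself was at 36.2, 11.7 and 30.2 CPM in WT replicates 1, 2 and 3 and at 9.19, 5.14 and 28.6 CPM in KO replicates 1, 2 and 3. It therefore goes against the label of 2 libraries in either reading, and every direction below is a direction between labels. Names of WT replicate 1 and KO replicate 1 start with Old, and those of the other 4 libraries with a number. No source used here says what that difference in names stands for.

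Library totals ran from 11574206 to 24138824 counts. The 6 atrial cardiomyocyte markers summed to between 30100 and 38000 CPM, and 5 ventricular markers to between 153 and 699 CPM. Among markers of other cell types, Tcf21, Tubb3, Ms4a1, Acta1 and Myh1 were at 0 in every library. A 0 need not mean absence, since 98.1% of protein-coding genes wholly covered by others are at 0, as described for Per3 below. Whether these markers are such genes was not tested. The summed level of 4 Y-linked genes was 1.08 and 1.09 CPM in WT replicates 1 and 2 and between 78.8 and 146 CPM in the other 4 libraries, so by library name it differed between the groups in how many libraries had it. In bulk tissue, fewer cells of a type and less RNA per cell cannot be told apart.

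The elements of the loop were looked for in the sequences upstream of the clock genes, and the 4 windows that hold one are printed. RefSeq promoter sequences (GRCm38.p6) matched 9 of the 10 genes, all but Per2. The 250 bases before each start were searched on both strands for the E-box CACGTG, the D-box TTATGTAA or TTACGTAA, the RORE TAGGTCA or TGGGTCA, and the cAMP response element TGACGTCA. Each window reads 5′ to 3′ on the strand of the gene and ends at the base before the start, with the matched element in capitals. The Per1 window is chr11:69098699-69098948, that of Cry1 chr10:85185055-85185304, that of Nfil3 chr13:52981040-52981289 and that of Per3 chr4:151044666-151044915; Per1 is on the plus strand and the other 3 genes are on the minus strand.
Per1: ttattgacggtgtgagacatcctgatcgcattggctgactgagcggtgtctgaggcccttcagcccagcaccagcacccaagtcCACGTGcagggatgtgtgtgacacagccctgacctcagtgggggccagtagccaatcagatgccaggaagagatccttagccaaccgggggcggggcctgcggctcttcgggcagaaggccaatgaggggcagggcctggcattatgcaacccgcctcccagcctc
Cry1: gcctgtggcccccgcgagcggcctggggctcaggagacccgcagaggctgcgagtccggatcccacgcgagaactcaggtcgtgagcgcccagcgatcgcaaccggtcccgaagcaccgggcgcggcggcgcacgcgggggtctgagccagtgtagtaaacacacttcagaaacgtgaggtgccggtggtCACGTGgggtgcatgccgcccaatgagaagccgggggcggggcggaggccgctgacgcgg
Nfil3: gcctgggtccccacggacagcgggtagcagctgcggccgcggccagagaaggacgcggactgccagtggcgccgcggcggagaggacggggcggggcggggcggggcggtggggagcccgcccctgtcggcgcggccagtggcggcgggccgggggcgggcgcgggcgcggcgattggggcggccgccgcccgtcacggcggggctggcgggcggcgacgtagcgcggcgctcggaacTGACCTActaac
Per3: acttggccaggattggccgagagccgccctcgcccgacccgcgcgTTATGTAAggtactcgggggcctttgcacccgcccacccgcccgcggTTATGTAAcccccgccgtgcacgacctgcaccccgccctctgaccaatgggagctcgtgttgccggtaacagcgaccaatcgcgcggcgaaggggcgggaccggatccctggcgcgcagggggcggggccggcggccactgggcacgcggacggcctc
The E-box of Per1 begins 166 bases before its first annotated start and that of Cry1 begins 60 bases before. Nfil3 has a RORE that begins 12 bases before the start, printed as its reverse complement TGACCTA. Per3 has D-boxes at 205 and 158 bases. The other windows searched, which were those of Clock, Npas2, Nr1d1, Nr1d2, Dbp and the second start of Per1, do not hold these letters. Of all 32851 starts in the RefSeq table, 6.02% have the E-box in the same window, 0.931% the D-box, 5.38% the RORE and 1.55% the cAMP response element. A match describes the letters only, since no binding was measured.

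The activators differed in how far they ranged. Clock, which encodes the broadly expressed activator of the loop (chromosome 5, 76209868 to 76304792, GRCm38, minus strand), was at 48.7, 40.3 and 61.2 CPM in WT replicates 1, 2 and 3 and at 43.1, 51.4 and 47.6 CPM in KO replicates 1, 2 and 3. Its highest and lowest libraries were both labelled WT, and they lay 1.52-fold apart. Npas2, the paralog of Clock (chromosome 1, 39193731 to 39363236, plus strand), was at 1.80, 10.7 and 10.5 CPM in the WT libraries and at 4.20, 6.01 and 5.33 CPM in the KO libraries. WT replicate 1 stood lowest, from 30 counts (95% Poisson interval 1.21 to 2.57 CPM), and WT replicates 2 and 3 highest, so the WT libraries reached further in both directions than the KO libraries. The range of Npas2 was 5.94-fold. Poisson intervals here cover counting error only.

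Arntl, which encodes the partner of both activators and is not among the 10 genes, had a wider range still. Its levels were 1.44, 23.4 and 31.5 CPM in WT replicates 1, 2 and 3 and 5.67, 17.5 and 19.3 CPM in KO replicates 1, 2 and 3. Both libraries named Old were far below the other 4. The range was 21.9-fold, and the lowest value rests on 24 counts (95% Poisson interval 0.921 to 2.14 CPM).

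**Figure D1:**
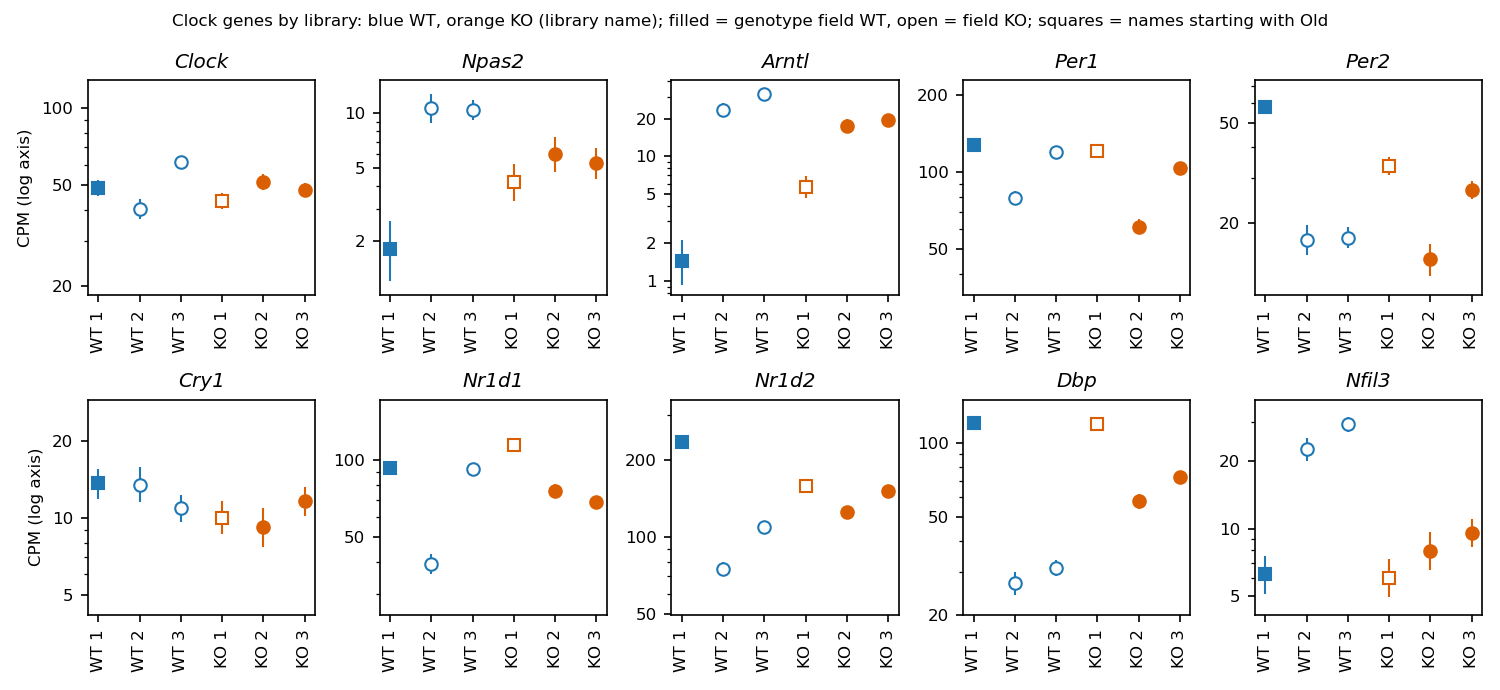
Level in CPM (log axis, each panel with its own scale) of 9 clock genes and Arntl in each of the 6 libraries, with bars for the 95% Poisson interval of the count. Blue is WT and orange KO by library name, filled symbols have the genotype field WT, and squares mark names that start with Old; Arntl, Npas2 and Nfil3 have their lowest values in the squares and Dbp, Per2 and Nr1d2 their highest.

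Among the repressors, Per2 (chromosome 1, 91415982 to 91459324, minus strand) varied more than Per1 (chromosome 11, 69095217 to 69109960, plus strand), its paralog. Per2 was at 58.0, 17.1 and 17.4 CPM in WT replicates 1, 2 and 3 and at 33.8, 14.3 and 27.0 CPM in the KO libraries. WT replicate 1 was 4.07-fold above KO replicate 2, the lowest library, and the groups overlapped. Per1 was at 127, 79.0 and 120 CPM in the WT libraries and at 121, 61.1 and 104 CPM in the KO libraries. WT replicate 2 and KO replicate 2 were its lowest libraries, and its range was 2.07-fold. Per1 and Per2 are also induced by stress hormone and by cAMP signalling.

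Cry1, which encodes the cryptochrome that closes the loop (chromosome 10, 85131700 to 85185064, minus strand), was nearly flat. It was at 13.7, 13.5 and 10.9 CPM in the WT libraries and at 10, 9.20 and 11.6 CPM in the KO libraries, a range of 1.48-fold. The Poisson intervals of its highest and lowest libraries, 11.9 to 15.6 CPM and 7.67 to 10.9 CPM, do not overlap. Per3 (chromosome 4, 151003652 to 151044665) has 0 counts in all 6 libraries. Its whole body lies within Camta1 on the same strand. Among the 1348 protein-coding genes whose bodies are wholly covered by others, 1323 (98.1%) are likewise at 0, so no level is given for Per3.

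The NR1D receptors, also called REV-ERB, are the heme-binding repressors of the loop. Nr1d2 (chromosome 14, 18204054 to 18239127, minus strand) was at 236, 74.8 and 109 CPM in WT replicates 1, 2 and 3 and at 158, 125 and 151 CPM in the KO libraries. Again WT replicate 1 was highest and WT replicate 2 lowest, with a range of 3.16-fold, and the KO libraries lay between. Nr1d1 (chromosome 11, 98767932 to 98775333, minus strand) was at 93.6, 39.2 and 92.2 CPM in the WT libraries and at 115, 75.8 and 68.6 CPM in the KO libraries. Its range was 2.93-fold, with KO replicate 1 highest and WT replicate 2 well below all others. Nr1d1 overlaps Thra on the other strand, with 85.5% of its body free, and the kit does not mark strand. The clock genes Ciart and Wee1, wholly covered by genes on the other strand, are at 0 in every library. Reads from the stretch shared with Thra may therefore be missing from the count of Nr1d1, which was not tested.

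The output factors moved in opposite directions across libraries. Dbp (chromosome 7, 45705088 to 45710203, plus strand), an activator through D-boxes, was at 120, 26.9 and 31.1 CPM in WT replicates 1, 2 and 3 and at 119, 57.9 and 72.5 CPM in the KO libraries. Both libraries named Old were alike and highest, and WT replicates 2 and 3 were lowest. WT replicate 1 was 4.46-fold above WT replicate 2. Nfil3 (chromosome 13, 52967209 to 52981073, minus strand), the D-box repressor also known as E4BP4, was at 6.23, 22.7 and 29.3 CPM in the WT libraries and at 6.01, 7.97 and 9.58 CPM in the KO libraries. WT replicates 2 and 3 were far above the other 4 libraries, and WT replicate 1 lay within the KO range. Dbp has 85.6% of its body free and overlaps Sphk2 on the other strand.

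Over the 6 libraries, log2 levels of Dbp and Nr1d2 had a Pearson r of 0.912, Npas2 and Nr1d2 of -0.945, Dbp and Nfil3 of -0.941, and Npas2 and Nfil3 of 0.845. For Per1 and Nr1d1 most values were smaller, with 0.724 for Per1 and Per2 and 0.717 for Nr1d1 and Nr1d2 the largest: r was 0.417 for Per1 and Dbp, -0.412 for Per1 and Npas2, -0.087 for Per1 and Nfil3, -0.533 for Nr1d1 and Npas2 and -0.507 for Nr1d1 and Nfil3. Clock had no r beyond 0.446 in size with any other of the 9 genes, and Cry1 none beyond 0.464. These values are descriptions of the same 6 libraries, which also share their scaling, and carry no test.

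**Figure D2:**
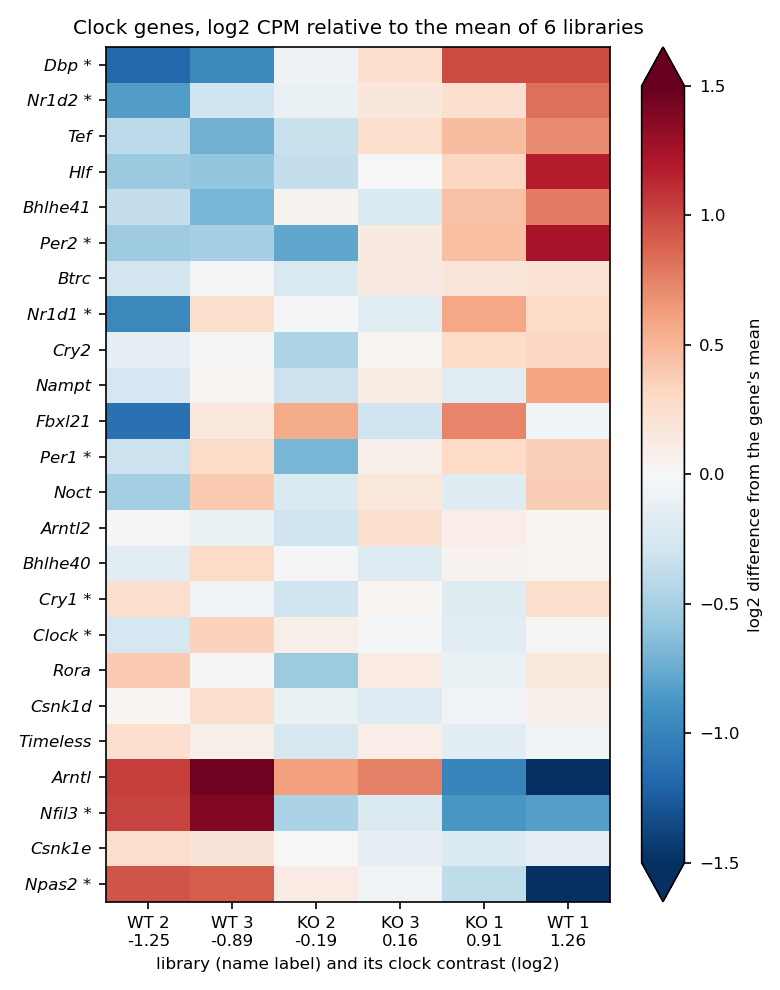
Level of 24 clock genes in each library as log2 CPM relative to the gene's mean over the 6 libraries (red higher, blue lower; the scale saturates at 1.5). Asterisks mark the 9 genes with counts, libraries run from left to right by the clock contrast printed under them, and the top and bottom rows change colour in opposite directions along that order.

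A single value per library summarises this order. The clock contrast is the mean log2 level of Per1, Per2, Nr1d1, Nr1d2 and Dbp minus that of Clock, Npas2, Cry1 and Nfil3, each gene centred on its mean over the 6 libraries. It was 1.26 in WT replicate 1 and 0.91 in KO replicate 1, the libraries named Old. WT replicate 2 had -1.25 and WT replicate 3 had -0.89, while KO replicate 2 (-0.19) and KO replicate 3 (0.16) lay in the middle. The WT label therefore holds both ends of the order. By library name the contrast was -0.29 ± 1.36 (SD, n = 3) in WT and 0.29 ± 0.56 in KO, and by genotype field it was 0.41 ± 0.76 in WT and -0.41 ± 1.16 in KO. The sign of the difference turned with the reading of the labels, and in both readings the groups overlapped and the spread within a group was larger than or close to the difference of the means.

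Ratios of counts within a library do not depend on scaling. Counts of Dbp per count of Arntl were 83.4 in WT replicate 1 and 21.1 in KO replicate 1, against 3.32 and 3.75 in KO replicates 2 and 3 and 1.15 and 0.989 in WT replicates 2 and 3. The ratio of Nr1d1 to Npas2 was 52.1 and 27.4 in WT replicate 1 and KO replicate 1, 12.6 and 12.9 in KO replicates 2 and 3, and 3.67 and 8.81 in WT replicates 2 and 3. In both ratios the libraries named Old were highest and WT replicates 2 and 3 lowest.

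**Figure D3:**
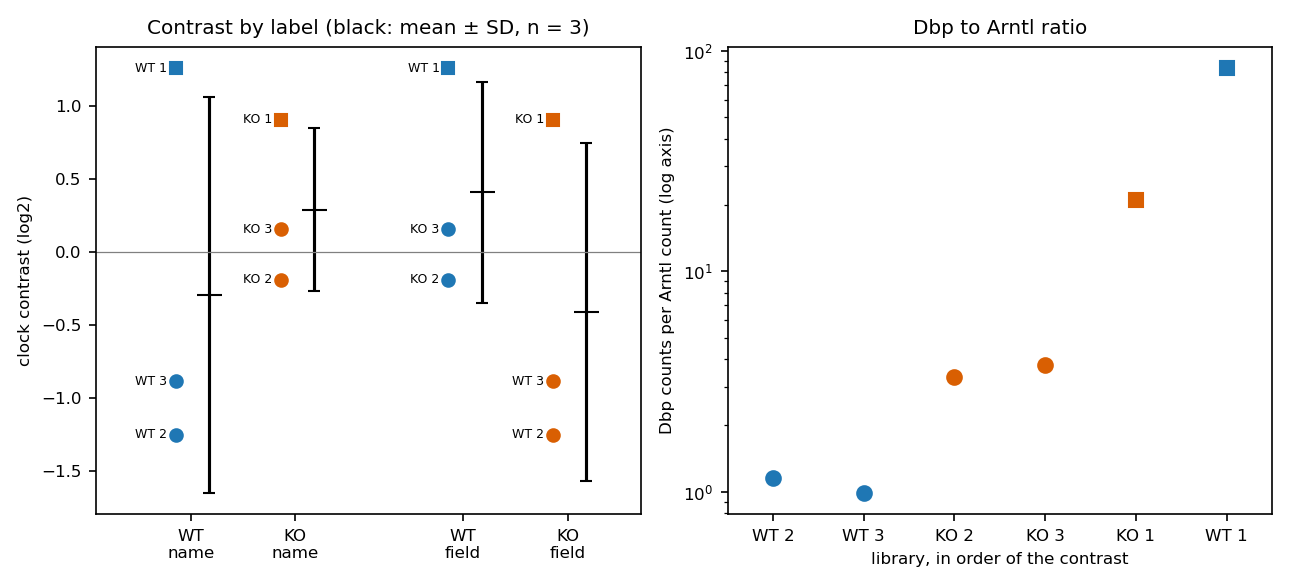
Left, the clock contrast (log2) of each library by library name and by genotype field, with the mean and SD of each group of 3 in black; the WT libraries by name span from -1.25 to 1.26. Right, counts of Dbp per count of Arntl (log axis) in the 6 libraries ordered by the contrast, from about 1 in WT replicates 2 and 3 to 83.4 in WT replicate 1.

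Between KO and WT by library name, no clock gene passed the test. The comparison asked which genes differ with loss of PKC-epsilon, and edgeR's quasi-likelihood test over 14708 genes called 0 genes (0%) at an adjusted p of 0.05, 0 of the 9 clock genes among them. DESeq2 and limma-voom also called 0. At an unadjusted p under 0.05, edgeR's count was 219 genes (1.49%), DESeq2's 223 and limma-voom's 236. Nfil3 was the 1 clock gene among the 219. Its mean was 19.4 ± 11.9 CPM (SD, n = 3) in WT and 7.85 ± 1.79 CPM in KO, and its log2 fold change was -1.30 (SE 0.50, edgeR adjusted p = 0.99993). In edgeR's fit of the numbered libraries alone, 4 of the 9 had an unadjusted p under 0.05, against 4.72% of all genes. Without WT replicate 1 it was also 4, against 4.33%. With any other library left out it was 0 or 1, against 0.842% to 4.6%. With the replicate number as a block or the series as covariate it was 2, against 2.19% and 2.09%. With limma-voom and without the low-count filter it was 0, against 1.6% and 2.12%.

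The other 8 clock genes had log2 fold changes between -0.56 and 0.49 by library name. Npas2 averaged 7.65 ± 5.07 CPM in WT and 5.18 ± 0.916 CPM in KO, a log2 fold change of -0.56 (SE 0.54). Dbp averaged 59.3 ± 52.5 CPM in WT and 83.3 ± 32.2 CPM in KO, a log2 fold change of 0.49 (SE 0.67). Values for the remaining genes were 0.20 (SE 0.33) for Nr1d1, 0.05 (SE 0.38) for Nr1d2, -0.08 (SE 0.17) for Clock and -0.19 (SE 0.26) for Per1. Per2 and Cry1 were both at -0.30, with SE of 0.57 and 0.21. Every one of the 9 genes overlapped between the groups, against 5.95% of all tested genes that did not.

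By genotype field, Nfil3, Npas2, Dbp, Nr1d2 and Per1 had the opposite sign to that by library name. Nfil3 averaged 7.93 ± 1.68 CPM (SD, n = 3) in the libraries whose field says WT and 19.3 ± 12 CPM in those whose field says KO, a log2 fold change of 1.28 (SE 0.52, edgeR adjusted p = 0.868). Npas2 averaged 4.38 ± 2.26 and 8.45 ± 3.68 CPM, a log2 fold change of 0.95 (SE 0.47, edgeR adjusted p = 0.904). Dbp, Per2 and Nr1d2 had log2 fold changes of -0.49 (SE 0.67), -0.54 (SE 0.53) and -0.58 (SE 0.31). None of the 9 genes passed, 2 genes in all were called (0.0136%), and all 9 overlapped between the groups against 12% of genes that did not. At an unadjusted p under 0.05 there were 837 genes (5.69%), and Nfil3 was again the only one of the 9. With the replicate number as a block, edgeR called 51 genes in this reading and none of the 9, with adjusted p = 0.0662 for Nr1d2 and 0.0952 for Npas2. In that fit 5 of the 9 had an unadjusted p under 0.05, against 9.33% of all genes. It was 4 with the series as covariate, against 8.04%, and 4 in the numbered libraries alone, against 4.72%. With limma-voom and without the low-count filter it was 0, against 5.47% and 5.2%.

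As a sum, ventricular markers were higher where the genotype field says KO, though not every marker was. Their summed level was 288, 153 and 370 CPM in the libraries whose field says WT (WT replicate 1 and KO replicates 2 and 3) and 540, 699 and 441 CPM in those whose field says KO (KO replicate 1 and WT replicates 2 and 3). Of the 5 markers, Myl2, Myl3 and Irx4 did not overlap between these groups, against 12% of all tested genes, and none was at 0 in all libraries. Irx4 had at most 11 counts in a library and was not tested. Hey2 was nearly level, at means of 3.25 CPM where the field says WT and 3.39 CPM where it says KO. Myh7 went the other way, at 168 ± 116 and 136 ± 15.8 CPM, and its groups overlapped. Myl2, which encodes the ventricular regulatory light chain, averaged 30.5 ± 4.24 CPM (SD, n = 3) and 261 ± 91.5 CPM, and it was 1 of the 2 genes called (log2 fold change 3.09, SE 0.25, edgeR adjusted p = 0.0039). The part of ventricular tissue in the clock values was not tested.

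**Figure D4:**
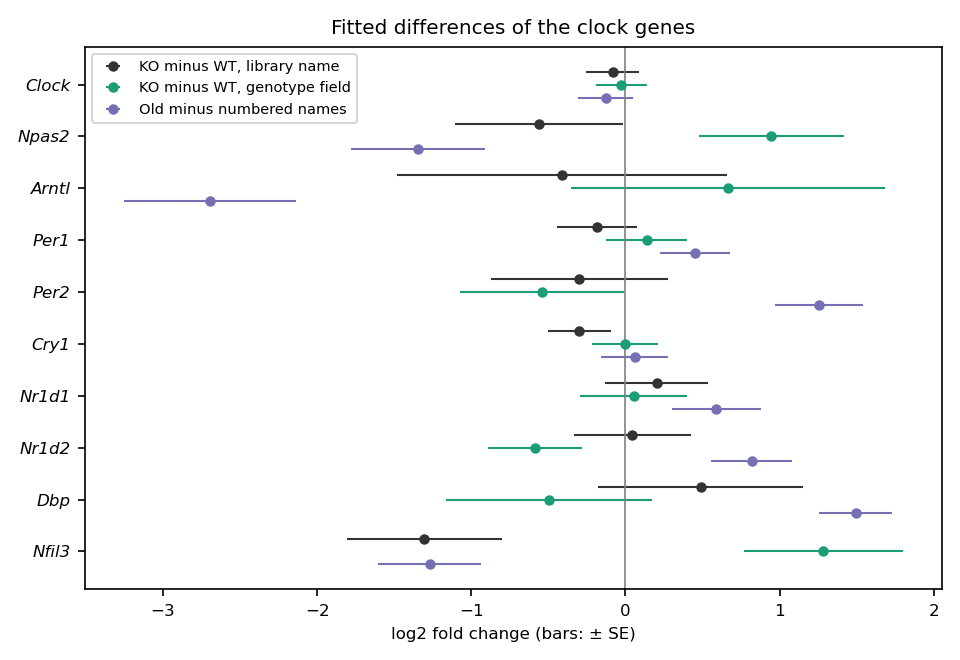
Fitted log2 fold change with its SE for 9 clock genes and Arntl in 3 comparisons over the same 6 libraries: KO minus WT by library name (black), KO minus WT by genotype field (green) and Old minus numbered library names (purple). Npas2, Nfil3 and Dbp lie on opposite sides of 0 in the first 2, and the purple values of Arntl, Dbp, Npas2, Nfil3 and Per2 are more than 1 from 0.

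Nfil3 was the clock gene with the largest difference between labels, with opposite directions in the 2 readings. By library name its log2 fold change stayed between -1.77 and -0.87 over 15 alternatives, and by genotype field between 0.84 and 1.71. One alternative led to a call: without WT replicate 1, edgeR called 2 genes (0.0131%) by library name, and Nfil3 was among them at a log2 fold change of -1.73 (adjusted p = 0.0369). Within the 4 numbered libraries alone it was -1.56 (edgeR adjusted p = 0.0998), and Dbp was 1.17 (adjusted p = 0.117). Within the libraries named Old, Nfil3 was at 6.23 and 6.01 CPM in WT and KO and Dbp at 120 and 119 CPM, and the Poisson intervals of the pair overlap for each gene.

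**Figure D5:**
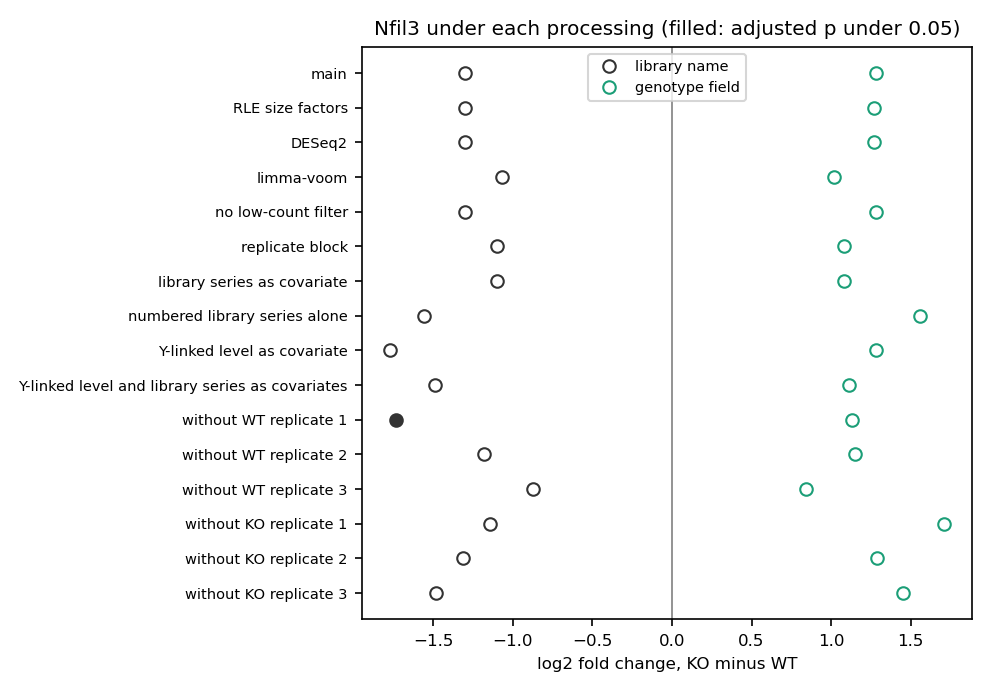
Log2 fold change of Nfil3, KO minus WT, under the reported fit and 15 alternatives, by library name (black) and by genotype field (green); filled points have an adjusted p under 0.05. All black points are below 0 and all green points above it, and the 1 filled point is the fit without WT replicate 1. Libraries left out are called by library name.

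Between the 2 libraries named Old and the 4 numbered ones, Dbp, Per2 and Nr1d2 were higher and Npas2 and Nfil3 lower in those named Old, with no overlap. This comparison, fitted with the library-name genotype as a second term, was added after the values were seen. Of the 9 genes, 7 did not overlap between the series, against 22% of 15279 tested genes; they were Npas2, Per1, Per2, Nr1d1, Nr1d2, Dbp and Nfil3. EdgeR called 0 genes (0%) at an adjusted p of 0.05, and 1694 (11.1%) had an unadjusted p under 0.05, with 5 of the 9 clock genes among them. Those 5 were Dbp at a log2 difference of 1.49 (SE 0.24, edgeR adjusted p = 0.255), Per2 at 1.26 (SE 0.28), Nr1d2 at 0.82 (SE 0.26), Nfil3 at -1.27 (SE 0.34) and Npas2 at -1.35 (SE 0.44). Means in the libraries named Old and in the numbered ones were 120 and 47.1 CPM for Dbp, 45.9 and 18.9 CPM for Per2, and 6.12 and 17.4 CPM for Nfil3. Clock (-0.13, SE 0.18) and Cry1 (0.06, SE 0.22) overlapped.

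Calls in this comparison depended on the fit. DESeq2 called 89 genes (0.582%), among them Dbp, Per2 and Nfil3, with adjusted p of 6.87e-06, 0.00852 and 0.0282. Without the low-count filter edgeR called 371 genes (1.57%), with 6 of the 9 clock genes: Dbp, Per2, Nr1d1, Nr1d2, Npas2 and Nfil3. Without KO replicate 1, the libraries named Old are WT replicate 1 alone, and its spread is taken from the others. Log2 differences were then 2.03 for Dbp, -2.08 for Nfil3, -2.57 for Npas2 and 1.35 for Nr1d2. Without WT replicate 1, which leaves KO replicate 1 alone, the differences were smaller: 0.86 for Dbp, 0.69 for Per2, 0.18 for Nr1d2, -0.56 for Nfil3 and -0.44 for Npas2. In each of these fits 1 library stands for the series, so only sizes are given here. Limma-voom called 0. Adipocyte markers also differed between the series: their summed level was 14.0 and 14.6 CPM in the libraries named Old and between 23.0 and 115 CPM in the numbered ones. Of the 6 markers, 4 (Adipoq, Plin1, Retn and Cidec) did not overlap, against 22% of all tested genes. Of that list, none was at 0 in all libraries, and its part in the clock values was not tested. The hour of collection, the day of processing and the series name cannot be told apart.

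Other genes of the clock gave the same order of libraries. Of 21 further clock genes fixed as a list, 17 were tested; Ciart, Usp2 and Wee1 are listed at 0 and have no free part of the body, and Rorb had 0 to 5 counts. By library name 0 of 17 passed edgeR's test in either direction, with a median log2 fold change of -0.19 beside -0.02 over all genes. By genotype field 0 passed, with a median of 0.04 beside -0.01. Between the series 0 passed, 5 of 17 had an unadjusted p under 0.05, against 11.1% of all genes, and the median was 0.09 beside 0.00 over all genes.

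The PAR bZIP factors Tef and Hlf, relatives of Dbp, were highest in WT replicate 1. Tef was at 268, 125 and 99.3 CPM in WT replicates 1, 2 and 3 and at 226, 130 and 197 CPM in the KO libraries. Hlf was at 112, 33.6 and 33.1 CPM in WT and at 61.2, 38.7 and 49.7 CPM in KO. Bhlhe41, also called Dec2, a repressor that competes for E-boxes, was at 54.9, 25.2 and 19.9 CPM in WT and 43.7, 33.5 and 27.7 CPM in KO. Each of these 3 genes was higher in both libraries named Old than in any other, as Dbp was. Fbxl21, a ubiquitin ligase subunit that acts on cryptochromes, had only 5 to 32 counts per library. DESeq2 called Arntl, Tef, Hlf and Bhlhe41 between the series, Arntl at a log2 difference of -2.78 (adjusted p = 0.0227), while edgeR gave Arntl -2.69 (SE 0.56, adjusted p = 0.336). In RefSeq, both starts of Tef and the start of Bhlhe41 have an E-box in the 250-base window, at 127, 138 and 153 bases, and Hlf has a cAMP response element at 9 bases.

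Cardiac genes known to be under clock control did not move as 1 group. Of 11 such genes, 0 passed edgeR's test by library name, by genotype field or between the series, with median log2 differences of -0.10, 0.17 and 0.21. Tcap, which encodes the titin cap protein of the Z-disc, was at 1540, 901 and 829 CPM in WT replicates 1, 2 and 3 and at 1970, 1250 and 1460 CPM in KO, and Kcnh2, which encodes the channel of the rapid delayed rectifier current, ranged from 82.7 CPM in KO replicate 2 to 161 CPM in KO replicate 1. Both were higher in the libraries named Old than in the others. Pdk4, which encodes a kinase that shuts down pyruvate dehydrogenase, ranged from 282 CPM in WT replicate 1 to 895 CPM in WT replicate 3. Hcn4, which encodes the pacemaker channel, ranged from 7.82 CPM in KO replicate 3 to 17.7 CPM in KO replicate 2.

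Glucocorticoid targets and immediate early genes were read beside the clock genes because hormone and handling also act on Per1 and Per2. Of 6 glucocorticoid targets, 0 passed edgeR's test in any of the 3 comparisons, and all 6 had a negative log2 fold change by library name (median -0.22, beside -0.02 over all genes). Between the series, where Dbp, Per2 and Nr1d2 were also higher in the libraries named Old, 5 of the 6 targets were higher in those libraries (median 0.43, beside 0.00 over all genes) and 2 had an unadjusted p under 0.05, against 11.1% of all genes: Klf9 at 0.97 (SE 0.33), with no overlap, and Tsc22d3 at 0.59 (SE 0.21), with overlap. Zbtb16 was at 41.9, 10.3 and 36.6 CPM in WT replicates 1, 2 and 3 and at 20.4, 8.26 and 19.5 CPM in the KO libraries, so its lowest libraries, WT replicate 2 and KO replicate 2, were also those of Per1. Klf9 ranged from 26.6 CPM in WT replicate 2 to 112 CPM in WT replicate 1, Fkbp5 from 22.2 CPM in WT replicate 2 to 53.1 CPM in WT replicate 3, and Errfi1 from 65.1 to 144 CPM in the same 2 libraries. Of 14 immediate early genes, 0 passed in any comparison (median -0.11 by library name). Between the series 9 were higher and 5 lower in the libraries named Old (median 0.26, beside 0.00 over all genes). There 3 had an unadjusted p under 0.05, against 11.1% of all genes: Egr1 at 0.66 (SE 0.18), Jun at 0.53 (SE 0.19) and Dusp1 at 0.34 (SE 0.15). Egr1, Dusp1 and Fos were higher in the libraries named Old with no overlap, where 22% of all tested genes did not overlap. Fosb ranged from 12 CPM in WT replicate 1 to 85.6 CPM in WT replicate 3, Atf3 from 52.1 CPM in WT replicate 2 and KO replicate 1 to 244 CPM in KO replicate 3, Junb from 18.5 CPM in KO replicate 2 to 51.3 CPM in WT replicate 2, and Egr3 from 8.55 CPM in KO replicate 2 to 22.5 CPM in WT replicate 3. By library name 2 of the 14 and by genotype field 3 had an unadjusted p under 0.05, against 1.49% and 5.69% of all genes. Junb did not overlap by genotype field, at a log2 fold change of 0.98 (SE 0.19, edgeR adjusted p = 0.536). The order of libraries differed from gene to gene among the immediate early genes, and their part in the clock values was not tested.

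Among the temperature-responsive genes, the heat shock genes listed other than Dnajb1 were highest in WT replicate 3. Of 9 listed, 0 passed edgeR's test in any comparison, but by library name 5 had an unadjusted p under 0.05, against 1.49% of all genes, and the median log2 fold change was -0.61 beside -0.02 over all genes. Of these 5, Hspa1a, Hspa1b, Hsph1 and Hspb1 were lower in KO. The cold-inducible Rbm3 went the other way with no overlap, at 72 ± 16.2 CPM in WT and 111 ± 11.9 CPM in KO (log2 fold change 0.63, SE 0.18). Between the series 3 had an unadjusted p under 0.05, against 11.1%, and the median was -0.46 beside 0.00. The median log2 level of the list relative to the mean of the libraries was 0.92 in WT replicate 3 and between -0.34 and 0.03 in the other 5. Hspa1a and Hspa1b, which encode inducible HSP70 and are near-identical copies whose reads may be split, were at 20.6 and 17.2 CPM there, against at most 5.88 and 3.19 CPM elsewhere. Hsp90aa1 was at 323 CPM there and at most 168 CPM elsewhere. Dnajb1, Rbm3 and Cirbp were at 20.7, 69.7 and 64.3 CPM in WT replicate 3, each within the range of the other libraries. Hspb1, a small heat shock protein gene, was at 152, 372 and 448 CPM in WT replicates 1, 2 and 3 and between 187 and 194 CPM in KO, which puts WT replicates 2 and 3 above the others as Nfil3 does. Whether the state of WT replicate 3 bears on its clock genes was not tested.

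Genes outside the clock lists that followed the clock contrast most closely were taken by Pearson r over the 6 libraries, among 1864 candidates with a mean of at least 10 CPM and an SD of at least 0.3 on the log2 scale. Of these, 47 had an r of 0.9 or more and 44 of -0.9 or less. The highest 5 were Tbc1d24 (r = 0.985), Gca, Fam204a, Eef2k and Gemin5, and the lowest 5 were Sphk2 (-0.978), Jund, Stx11, Serpinh1 and Manf. Eef2k, which encodes the kinase of translation elongation factor 2, was at 47.7 and 47.1 CPM in WT replicate 1 and KO replicate 1, 32.4 and 32.7 CPM in KO replicates 2 and 3, and 25.9 and 26.8 CPM in WT replicates 2 and 3. Serpinh1, which encodes a collagen chaperone of the endoplasmic reticulum, ran the other way, with 192 and 239 CPM, then 336 and 263 CPM, then 453 and 493 CPM in the same pairs. Sphk2, the gene that overlaps Dbp on the other strand, went against it, from 8.51 CPM in WT replicate 1 to 21.1 CPM in WT replicate 2. The candidates share the 6 libraries with the contrast, and these values carry no test.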

How the data were processed

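The authors deposited raw counts of reads per Ensembl gene, with no normalisation; the library kit was TruSeq v2, per the labels' protocols. The build was GRCm38, and HISAT2 2.1.0, featureCounts 1.5.0-p3, MultiQC 1.7 and FastQC 0.11.5 are the tools named, per the submitters' processing notes. The annotation release, strand setting and feature type were not given in the sources used here. Positions were taken from GENCODE M21, which held 54809 of 54838 identifiers.

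From these counts, differences were tested with edgeR 4.0.16 in R 4.3.3 (quasi-likelihood F test, two-sided, TMM, filterByExpr, Benjamini-Hochberg over all genes tested, threshold 0.05). SE was taken as the size of the log2 fold change divided by the root of F. CPM were TMM-scaled, and log2 CPM used a prior count of 2. DESeq2 1.42.0, limma-voom (limma 3.58.1), RLE scaling, no filter, covariates and leaving out each library were alternatives. The clock genes, the lists and the rule for named genes (all 10 genes, other clock genes with a log2 range of at least 1, up to 4 genes per list by range, 5 at each end of likeness) were chosen with earlier results of these data known; any other gene named was chosen after its values were seen.

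Every 2 libraries differed by more than sampling noise (20.4 to 67.5 in chi-square over its degrees of freedom). Labels say the mice are separate, 1 library each. Replicate numbers of the titles were taken as pairs in the replicate block only, and the reported fits have no such block. Deviations of same-numbered libraries correlated at 0.157, 0.162 and 0.121 by library name and at 0.269, 0.227 and 0.121 by genotype field. By genotype field, number 3 did not correlate best with its own number. Number 1 is also both libraries named Old.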

Additional observations from a re-analysis of the deposited data

Results flagged for a closer look

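In 5 cases a clock gene's difference between KO and WT had the opposite sign in the libraries named Old (1 WT, 1 KO) and in the 4 numbered libraries, whose labels did not overlap. In 2 of them, Dbp and Nfil3, the counting intervals of the Old pair overlapped, so no direction is read from it. By library name, the KO minus WT difference in the Old libraries minus that in the numbered ones was 2.12 on the log2 scale for Npas2, -1.17 for Nr1d2, -1.17 for Dbp and 2.56 for Arntl. For Npas2 it was 1.22 in the Old libraries and -0.90 in the numbered ones, for Nr1d2 -0.58 and 0.59, and for Arntl 1.97 and -0.58. Dbp was nearly level in the Old libraries, at -0.0049 on the log2 scale, and 1.17 in the numbered ones. By genotype field it was -1.62 for Nfil3, from -0.05 in the Old libraries and 1.57 in the numbered ones. In that reading Npas2 (1.22 and 0.90), Nr1d2 (-0.58 and -0.59) and Arntl (1.97 and 0.58) had the same sign in both sets. The numbered libraries are those whose labels contradict each other, so the choice of reading turns only their sign. As an interaction term in edgeR's quasi-likelihood fit none of the 5 passed, with adjusted p of 0.334 for Npas2, 0.395 for Nr1d2, 0.357 for Dbp, 0.225 for Arntl and 0.977 for Nfil3. The Old set has 1 library per label, so its spread is taken from the numbered libraries.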

How the results depend on the processing

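By library name the count of genes called, 0 as reported, was 1 without the low-count filter, 3 in the numbered libraries alone and 0 to 4 with 1 library left out, 4 of them without WT replicate 3. Of the 9 clock genes, 0 or 1 was called with 1 library left out, and that 1 was Nfil3 without WT replicate 1. By genotype field the count, 2 as reported, was 27 with DESeq2, 1 with limma-voom, 25 without the filter, 7 with the series as covariate, 8 with the series and the Y-linked level, and 0 to 2 with 1 library left out (0 when WT replicate 1 or KO replicate 3 was dropped, and 1 when KO replicate 2 or either of WT replicates 2 and 3 was); none of the 9 was called in any of these. Between the series the count, 0 as reported, was 89 with DESeq2, 3 of them among the 9, 371 without the filter, 6 of them among the 9, and 8 with the genotype field as the other term. With 1 library left out it was 0 to 55 genes and 0 to 4 of the 9, the highest without KO replicate 1, against 2 when WT replicate 2 and 1 when KO replicate 2 was dropped.

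Under the replicate block, 51 genes were called by genotype field and 0 by library name, with none of the 9 in either. The paired fit turned the log2 fold change of Arntl by library name to 0.06 and that of Nr1d1 by genotype field to -0.06, and it changed no other direction and no call of a clock gene.

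Other sign changes concerned values that did not pass in any of these fits. By library name, Arntl was 0.23 with limma-voom and 0.04 with the series as covariate. Per2 was 0.27 in the numbered libraries alone, 0.40 with the Y-linked level as covariate and 0.11 with that and the series, where Nr1d1 was -0.09 and -0.31. By genotype field, Nr1d1 was -0.07 with limma-voom, -0.13 in the numbered libraries alone, -0.10 with the Y-linked level and -0.12 with that and the series. Cry1 was 0.22, 0.03 and 0.03 in the last 3 of these fits, and Clock was 0.04 in the numbered libraries alone.

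With 1 library left out, log2 fold changes by library name ran from -0.21 to 0.09 for Clock (positive without WT replicate 3), -0.39 to 0.05 for Per1 (without KO replicate 2), -0.59 to 0.54 for Per2 (without WT replicate 1) and -0.96 to 0.21 for Arntl (without WT replicate 3). Those of Nr1d1 ran from -0.10 to 0.39, negative without WT replicate 2 or KO replicate 1, and those of Nr1d2 from -0.25 to 0.65, negative without KO replicate 1 or either of WT replicates 2 and 3. By genotype field the ranges were -0.24 to 0.08 for Clock, -0.11 to 0.36 for Per1, -0.94 to 0.12 for Per2, -0.14 to 0.13 for Cry1 and -0.27 to 0.38 for Nr1d1. Per1 turned without KO replicate 2 and Per2 without WT replicate 1; Clock turned when WT replicate 2, KO replicate 1 or KO replicate 2 was dropped, Cry1 when any of WT replicates 1 and 3 and KO replicates 1 and 3 was, and Nr1d1 when WT replicate 3, KO replicate 1 or KO replicate 3 was. Between the series they were -0.26 to 0.00 for Clock and -0.07 to 0.15 for Cry1, each turning or reaching 0 without WT replicate 3, and Cry1 also without WT replicate 1. The cause of these changes was not tested. Npas2, Dbp and Nfil3 kept their direction in all alternatives of each comparison, but not their size. With 1 library left out, Dbp by library name ran from 0.15 (without WT replicate 2 or KO replicate 1) to 1.52 (without WT replicate 1) and Npas2 from -0.25 (without WT replicate 3) to -1.03 (without WT replicate 1). By genotype field Dbp ran from -0.15 (without WT replicate 1) to -1.52 (without KO replicate 1) and Npas2 from 0.57 to 1.27 with the same libraries left out. Nfil3 ran from -0.87 (without WT replicate 3) to -1.73 (without WT replicate 1) by library name and from 0.84 (without WT replicate 3) to 1.71 (without KO replicate 1) by genotype field. Between the series, leaving out WT replicate 1 and KO replicate 1 in turn gave 0.86 and 2.03 for Dbp, -0.44 and -2.57 for Npas2 and -0.56 and -2.08 for Nfil3. The sign held as well for the clock contrast of each library without Nr1d1, without Per1 and Nfil3, or with a prior count of 0.5.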
